A study of Mus musculus with 12 samples.

Results

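Complement is a cascade of blood and tissue proteins that marks particles for removal, and 7 of its genes were followed here through 4 groups of mouse white matter: C1qa, C1qb and C1qc, C4b, C3, and the receptor genes C3ar1 and C5ar1. Each gene was read from the locus of the deposited table that carries its symbol, taking the locus with the highest mean level where a symbol occurred more than once. The 7 genes are 7 of 33864 loci, and 4 of them (C1qa, C1qb, C1qc and C4b) were among the 13803 loci that had 1 FPKM or more in 3 or more libraries and so entered the test. They were selected on the measured FPKM of the dnEGFR comparison, because C1qb was higher in dnEGFR mutants while other microglial genes were not, so their values in that comparison are described without a test.

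The classical pathway starts when C1q, a hexamer of trimers built from the C1qa, C1qb and C1qc chains, binds a surface together with the proteases C1r and C1s. These cleave C4 and C2, and the products cleave C3, whose fragments coat the target and release the peptide C3a. The later component C5 yields the peptide C5a, and C3ar1 and C5ar1 encode the receptors for C3a and C5a. In brain, microglia are the main source of C1q, and C3 is low in healthy tissue.

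RNA was measured by sequencing of polyadenylated transcripts in subcortical white matter of 12 mice, 3 per group, 1 library per mouse. The first group carried Sox10-tTA and TRE-dnEGFR, the second, its littermate controls, TRE-dnEGFR alone, and mice of both groups were 35 days old, with doxycycline given between postnatal days 21 and 35. The third group carried Sox10-tTA and TRE-ErbB2V664E, the fourth, its littermate controls, TRE-ErbB2V664E alone, and mice of both groups were 30 days old, with doxycycline given between days 21 and 30. dnEGFR is a dominant-negative epidermal growth factor receptor, ErbB2V664E is an activated form of the related receptor ErbB2, tTA is the transactivator that acts on TRE promoters, and Sox10 is a transcription factor of the oligodendrocyte lineage that microglia do not express. The labels do not say in which direction doxycycline switched the transgenes, and no group carried Sox10-tTA alone. The series title names the question, the response of white matter to activation or inhibition of ErbB receptors in oligodendroglia.

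Levels are in FPKM, a fragment count corrected for transcript length and for sequencing depth. The libraries held an estimated 16596869 to 24739584 fragments. The lines differ in transgene and age, and also in a locus named Gm28661, which was at 5589 to 6563 FPKM in the ErbB2V664E line and at 0 to 0.000146 FPKM in the dnEGFR line, so levels set across lines carry more than the genotype. Oligodendrocyte markers were abundant throughout, and 22 of 24 microglial marker loci entered the test. Of 8 monocyte and neutrophil markers all stayed below 1 FPKM in every library, as did 6 of 7 markers of border macrophages. In tissue libraries, fewer cells of a type and less RNA per cell cannot be told apart.

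C1qb, C1qc and C1qa follow each other on chromosome 4 in that order, with no other gene between them in the RefSeq annotation of GRCm38.p6. The 250 bases before the annotated start of C1qb and of C1qc are shown because these neighbouring genes were both higher in dnEGFR mutants. They come from RefSeq, build GRCm38.p6, minus strand, at chr4:136886201-136886450 for C1qb and chr4:136892915-136893164 for C1qc, and capitals mark matches to GAGGAA, the Ets core found in binding sites of the myeloid factor PU.1, on either strand.
C1qb: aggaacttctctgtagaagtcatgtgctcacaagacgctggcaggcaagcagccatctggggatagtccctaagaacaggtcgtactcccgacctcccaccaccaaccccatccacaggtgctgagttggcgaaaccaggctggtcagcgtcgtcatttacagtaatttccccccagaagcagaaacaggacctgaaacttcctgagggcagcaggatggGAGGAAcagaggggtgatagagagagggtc
C1qc: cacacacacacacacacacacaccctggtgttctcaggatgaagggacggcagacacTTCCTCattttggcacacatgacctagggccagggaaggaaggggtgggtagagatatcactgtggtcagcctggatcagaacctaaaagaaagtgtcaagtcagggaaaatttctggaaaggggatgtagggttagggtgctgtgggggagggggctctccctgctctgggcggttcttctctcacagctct

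Each window held 1 match, on the coding strand beginning 30 bases before the start of C1qb, and on the opposite strand beginning 193 bases before the start of C1qc. GAGGAA occurs on either strand in 23.3% of all 32851 promoter windows of this length. Searches on both strands for TGANTCA (AP-1), TTGCNNAA (C/EBP) and the interferon-stimulated response element (GAAA, any 2 bases, GAAA) found none in these windows. These motifs occur in 6.75%, 9.56% and 2.98% of all windows. The C3 window, of the same length, held 1 match to TTGCNNAA and the C3ar1 window 1 match to TGANTCA, while the C5ar1 window held no match to any of the 4 motifs. A match is a description of letters only.

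In the dnEGFR line C1qb was 2.62-fold higher in the mutants on average and C1qc lay above its controls in every mutant, while C1qa, the third chain of the same protein, had nearly equal means with overlapping groups. C1qb was at 14.1, 9.40 and 9.63 FPKM in the dnEGFR mutants (replicates 1 to 3), against 5.27, 3.89 and 3.48 FPKM in the dnEGFR controls. The groups did not overlap, and the mutant was higher in all 3 litters. The means were 11.1 ± 2.67 FPKM in mutants and 4.21 ± 0.935 FPKM in controls (SD, n = 3 each). The difference of log2(FPKM + 1) was 1.20 (SE 0.18), with 1.27, 1.09 and 1.25 in the 3 litters. Unless another fit is named, each SE comes from a fit to all 12 libraries. It is shared by both lines and does not measure the spread of the dnEGFR libraries alone.

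C1qc was at 8.42, 3.06 and 3.75 FPKM in the dnEGFR mutants, against 2.604, 2.78 and 3.01 FPKM in the dnEGFR controls. The groups again did not overlap, but the lowest mutant lay next to the highest control, and mutant 1 stood far above the other mutants. The log2 difference of 0.58 (SE 0.26) was made up of 1.39 in the litter of mutant 1 and 0.10 and 0.24 in the other litters. C1qa was at 24.5, 15.4 and 18.7 FPKM in the mutants, against 20.6, 18.3 and 19.97 FPKM in the controls. Mutants lay on both sides of the controls, with a log2 difference of -0.03 (SE 0.36). The low ErbB2V664E mutant 3, at 6.64 FPKM of C1qa, also enters this SE.

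Of the 4 members that entered the test, 2 had every dnEGFR mutant above every control. Among the 13803 loci that entered the test, 5.58% did so and 10.1% did not overlap in either direction. Since this comparison chose the genes, nothing is read from that count. Here and below, all loci means the loci that entered the test. Of these 0.0942% were called at an adjusted p under 0.05 in this comparison, and their median log2 difference was 0.01.

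**Figure D1:**
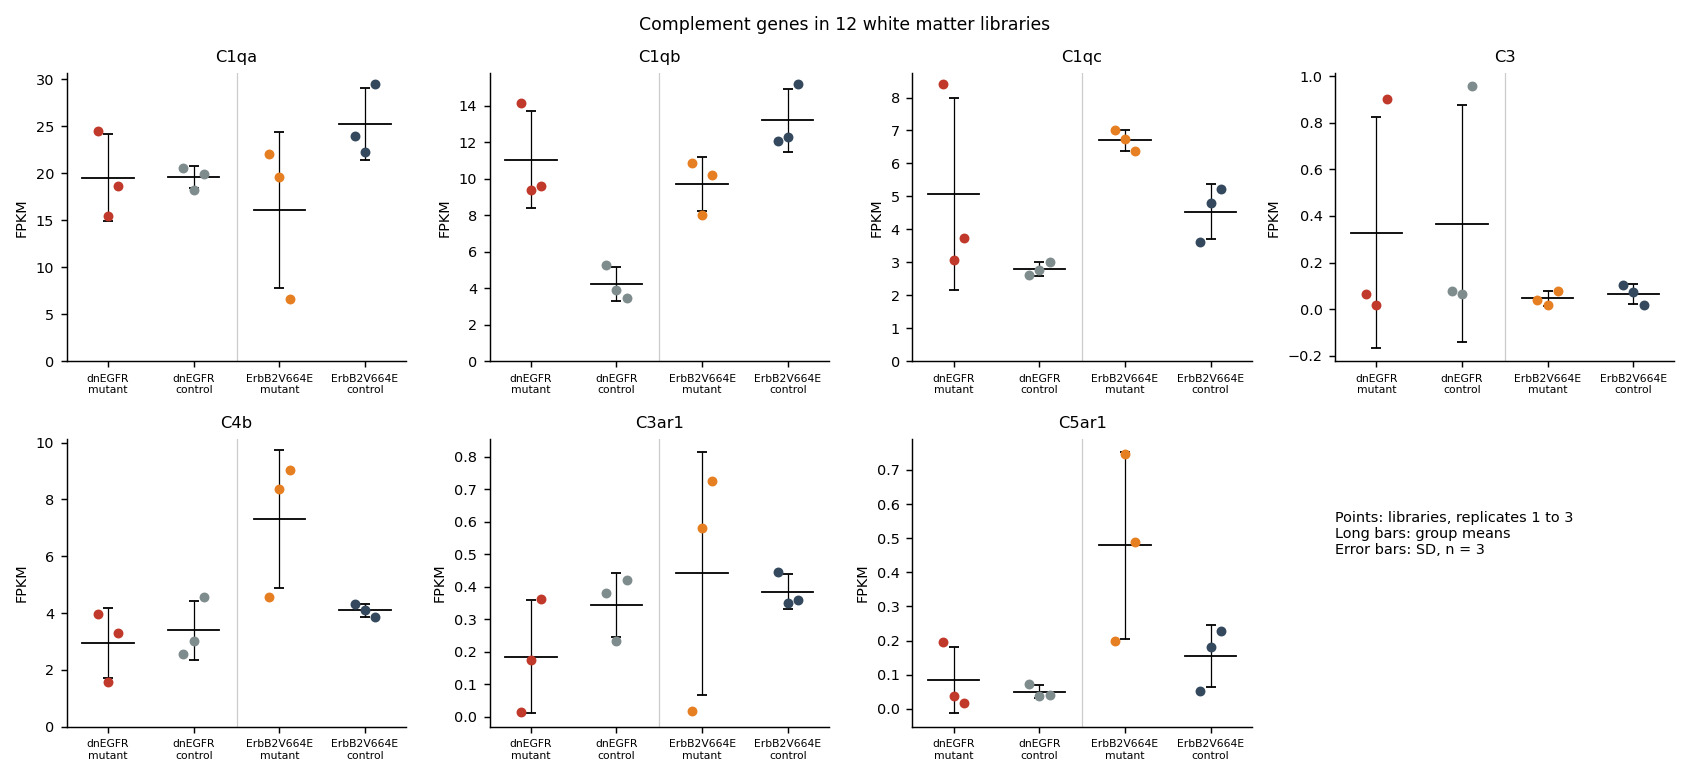
Level in FPKM (y axis, linear) of the 7 complement genes in each library, ordered by group from left to right. Dots are single libraries, horizontal bars show group means and vertical bars span 1 SD either way (n = 3 per group). C1qb in the dnEGFR controls (4.21 ± 0.935 FPKM) lies below every library of the other groups, C1qa shows no such gap, and C4b is higher in ErbB2V664E mutants 2 and 3.

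Set against all 4 groups, it was the dnEGFR controls that stood apart for C1qb. Their highest library, at 5.27 FPKM, lay below the lowest value anywhere else, 8.02 FPKM in ErbB2V664E mutant 2. The dnEGFR mutants, at 11.1 ± 2.67 FPKM, overlapped both the ErbB2V664E mutants, at 9.70 ± 1.49 FPKM, and the ErbB2V664E controls, at 13.2 ± 1.73 FPKM. The ErbB2V664E mutants and controls did not overlap each other. The dnEGFR controls were also the lowest group for C1qc, with a smaller gap. The highest dnEGFR control was at 3.01 FPKM and the lowest other library, dnEGFR mutant 2, at 3.06 FPKM.

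The ratio of C1qb to C1qa within a library was lowest in the same controls. It was 0.577, 0.61 and 0.516 in dnEGFR mutants, against 0.256, 0.213 and 0.174 in dnEGFR controls. In the other line it was 0.494, 0.408 and 1.54 in ErbB2V664E mutants, against 0.504, 0.554 and 0.515 in ErbB2V664E controls. The dnEGFR mutants had ratios next to those of the ErbB2V664E controls. The value of 1.54 belongs to ErbB2V664E mutant 3, where C1qa itself was at 6.64 FPKM.

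The 3 chains are present in equal number in the assembled protein, but their FPKM were not equal. C1qa was highest in every library except ErbB2V664E mutant 3. The C1qa locus holds 1 annotated transcript, while the loci of C1qb and C1qc hold 3 transcripts each, of which 2 and 1 were assembled from these reads and have no length in the files. Levels per length can therefore be compared within each chain more safely than between chains.

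**Figure D2:**
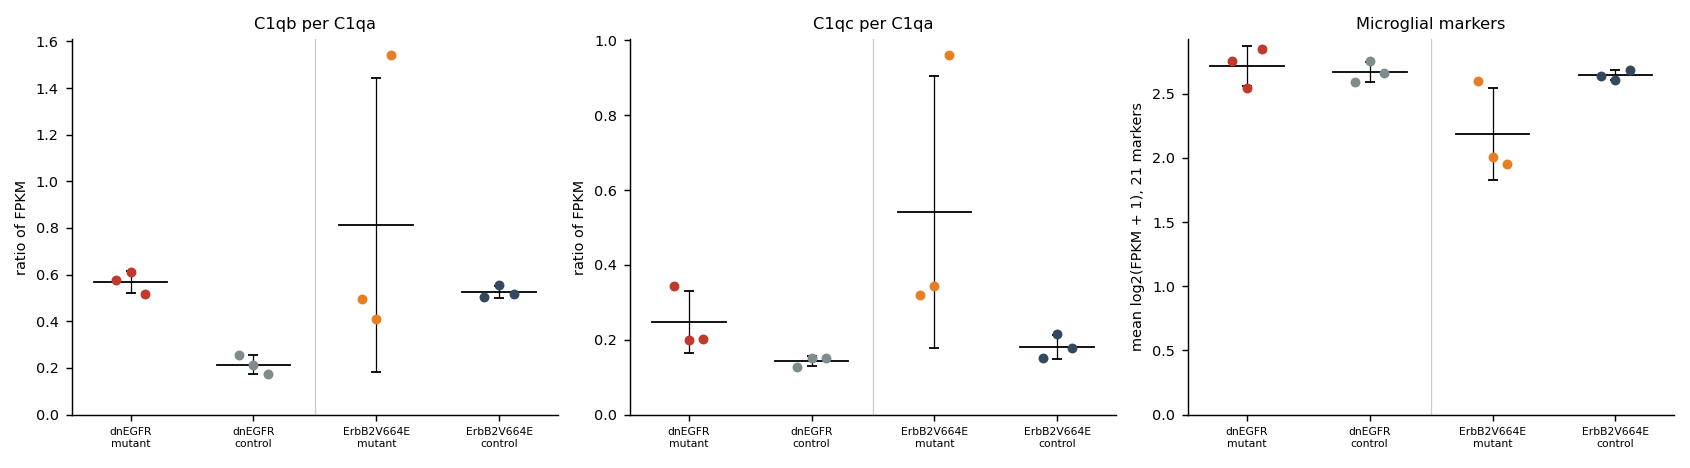
Ratio of C1qb to C1qa FPKM, ratio of C1qc to C1qa FPKM, and mean log2(FPKM + 1) of 21 microglial markers (y axes) in each library, ordered by group from left to right. Dots are single libraries, horizontal bars show group means and vertical bars span 1 SD either way (n = 3 per group). C1qb per C1qa is lowest in the dnEGFR controls (0.174 to 0.256), whereas their microglial marker level (2.59 to 2.75) lies among that of the dnEGFR mutants (2.55 to 2.85).

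Microglial markers did not separate the dnEGFR groups. The summed level of the 24 marker loci was 150 to 200 FPKM in mutants and 172 to 176 FPKM in controls, and the mean log2 level of 21 tested markers outside the complement system was 2.72 ± 0.154 in mutants and 2.67 ± 0.0803 in controls (SD, n = 3 each). Ctss, a lysosomal protease, was at 33.6 ± 4.03 FPKM in mutants and 32.5 ± 1.70 FPKM in controls. Csf1r, the receptor that microglia need for survival, was at 15.2 ± 3.07 FPKM in mutants and 14.3 ± 0.695 FPKM in controls. The C1qb difference lay above that of all 21 markers, whose median was 0.09 with a range of -1.45 to 0.98, which is how the gene was chosen.

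The loci whose pattern over the 12 libraries was most like that of C1qb were Mettl21a, a lysine methyltransferase (Pearson's r = 0.94), Mgat2, a Golgi enzyme of N-glycan processing (0.90), and Rraga, a GTPase that signals amino acid supply to mTORC1 (0.89), ranked among 12214 loci. All 3 shared low dnEGFR controls, which a match to C1qb favours, since its own pattern holds that gap. Mettl21a was at 2.32, 2.50 and 1.68 FPKM in dnEGFR mutants, against 0.873, 0.787 and 0.671 FPKM in dnEGFR controls, and at 1.78 to 2.29 FPKM in the ErbB2V664E line. Mgat2 was listed at 0 in the 3 dnEGFR controls and at 6.92 to 8.61 FPKM in every other library. Rraga was at 23.3, 30.8 and 4.58 FPKM in dnEGFR mutants and at 3.39, 0 and 0 FPKM in dnEGFR controls. The points share libraries and groups, and the dnEGFR libraries by which C1qb was chosen are among them, so these values are a description. An exact 0 of genes that most cells use can be a failed estimate in a library, and whether the low C1qb values of the same controls have such a part was not tested.

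C4b, C3 and the receptors showed no such gap in the dnEGFR line. C4b, which encodes the C4 protein cleaved by C1s, was at 3.98, 1.55 and 3.29 FPKM in dnEGFR mutants, against 2.56, 3.03 and 4.57 FPKM in dnEGFR controls. The groups overlapped, with a log2 difference of -0.18 (SE 0.29). Its near-identical copy C4a lay at 0.516 to 1.40 FPKM over all libraries, and reads shared by both may have been split between them.

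C3, the central component, was at 0.0662, 0.0193 and 0.90 FPKM in dnEGFR mutants, against 0.0787, 0.0674 and 0.956 FPKM in dnEGFR controls. The high mutant and the high control are littermates. All other libraries were far lower, with those of the ErbB2V664E line between 0.0186 and 0.102 FPKM. C3 stayed below the expression filter.

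The receptor gene C3ar1 was at 0.0145, 0.174 and 0.362 FPKM in dnEGFR mutants, against 0.379, 0.233 and 0.42 FPKM in dnEGFR controls. On its single transcript of 4305 bases these values stand for an estimated 1.2, 15.1 and 33.2 fragments in mutants and 30, 20 and 44.8 fragments in controls. C5ar1, the C5a receptor gene, had an estimated 9.9, 1.9 and 1 fragments in dnEGFR mutants and 3.4, 2 and 2.5 in dnEGFR controls. A difference in C5ar1 was not detectable at this depth in that line.

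In the ErbB2V664E line, which did not enter the choice of the genes, none of the 4 tested members passed the threshold. The SE and p of these tests also draw on the spread of the dnEGFR libraries. C1qa and C1qb were lower in every mutant than in every control, and C1qc and C4b were higher in every mutant than in every control. In this comparison 18.2% of all loci did not overlap in either direction, 9.28% with mutants above and 8.96% with mutants below. At an adjusted p under 0.05, 0.275% of all loci were called.

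C1qa was at 22.0, 19.6 and 6.64 FPKM in ErbB2V664E mutants, against 24.0, 22.2 and 29.5 FPKM in ErbB2V664E controls. Mutant 3 stood far below the other mutants, which lay just under the controls. The log2 difference was -0.76 (SE 0.36, limma, adjusted p = 0.427), and without mutant 3 it was -0.26 (adjusted p = 0.714). C1qa had an estimated 151 fragments in mutant 3, beside 380 and 428 in mutants 1 and 2.

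C1qb was at 10.9, 8.02 and 10.2 FPKM in ErbB2V664E mutants, against 12.1, 12.3 and 15.2 FPKM in ErbB2V664E controls. The mutant was lower in all 3 litters, and the log2 difference was -0.41 (SE 0.18, limma, adjusted p = 0.413). C1qb thus lay above its controls in the 3 dnEGFR litters and below them in the 3 ErbB2V664E litters, a difference of -1.61 on the log2 scale that was not tested because it holds the comparison that chose the gene.

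C1qc was at 7.02, 6.73 and 6.38 FPKM in ErbB2V664E mutants, against 3.62, 4.79 and 5.21 FPKM in ErbB2V664E controls. The mutants lay close together, and the log2 difference was 0.49 (SE 0.26, limma, adjusted p = 0.488). That SE includes the spread of the dnEGFR libraries. Without dnEGFR mutant 1 it was 0.1206 (limma, adjusted p = 0.1745), and with the ErbB2V664E line alone 0.1323 (limma, adjusted p = 0.3559). C4b was at 4.55, 8.38 and 9.03 FPKM in mutants, against 4.31, 4.12 and 3.85 FPKM in controls. Mutants 2 and 3 stood well above the controls and mutant 1 just above them. The means were 7.32 ± 2.42 FPKM in mutants and 4.09 ± 0.229 FPKM in controls (SD, n = 3 each), a 1.79-fold ratio with a log2 difference of 0.66 (SE 0.29, limma, adjusted p = 0.39, unadjusted p = 0.0433). Of the 4 members that passed the filter, C4b alone had an unadjusted p under 0.05, as did 12.1% of all loci.

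Ratios between the C1q chains were not tested in the ErbB2V664E line. C1qb per C1qc was 1.55, 1.19 and 1.60 in mutants, against 3.34, 2.57 and 2.91 in controls, with no overlap. C1qc per C1qa was 0.319, 0.343 and 0.961 in mutants, against 0.151, 0.2155 and 0.177 in controls, also with no overlap. Both gaps follow by arithmetic, since C1qa and C1qb lay below and C1qc above every control in each mutant. They add nothing to the values of the single genes. C1qb per C1qa, given above, overlapped between the groups. How often ratios of other loci do not overlap was not computed. The sum of the 3 chains was 32.5 ± 8.48 FPKM in mutants and 43.0 ± 6.00 FPKM in controls.

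Microglial markers were lower in ErbB2V664E mutants 2 and 3. The summed level of the 24 microglial loci was 155 FPKM in mutant 1 and 98.1 and 97.8 FPKM in the other mutants, and 158 to 188 FPKM in controls. Of 21 tested markers outside the complement system 19 had negative differences, with a median of -0.42, beside 0.00444 over all loci, and 0 of them were called (limma). With the mean marker level as a covariate, the log2 difference of C1qa was -0.105, that of C1qb -0.27, that of C1qc 0.67 and that of C4b 0.38, each at an adjusted p of 0.999. C1qc and C4b had differences above those of all 21 markers, while 11 markers lay below C1qb and 3 below C1qa. Some other lists were lower in this line too, with negative differences for 10 of 10 mature oligodendrocyte markers (median -0.77, 1 called lower), 5 of 5 red blood cell markers (median -1.57, 0 called) and 5 of 5 choroid plexus markers (median -0.67, 0 called). Further lists went both ways. Positive and negative differences numbered 3 and 5 for astrocyte markers, 3 and 6 for markers of disease-associated microglia (median -0.02), and 2 and 1 for fibroblast and mural markers. The part of all these lists in the members' differences was not tested.

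**Figure D3:**
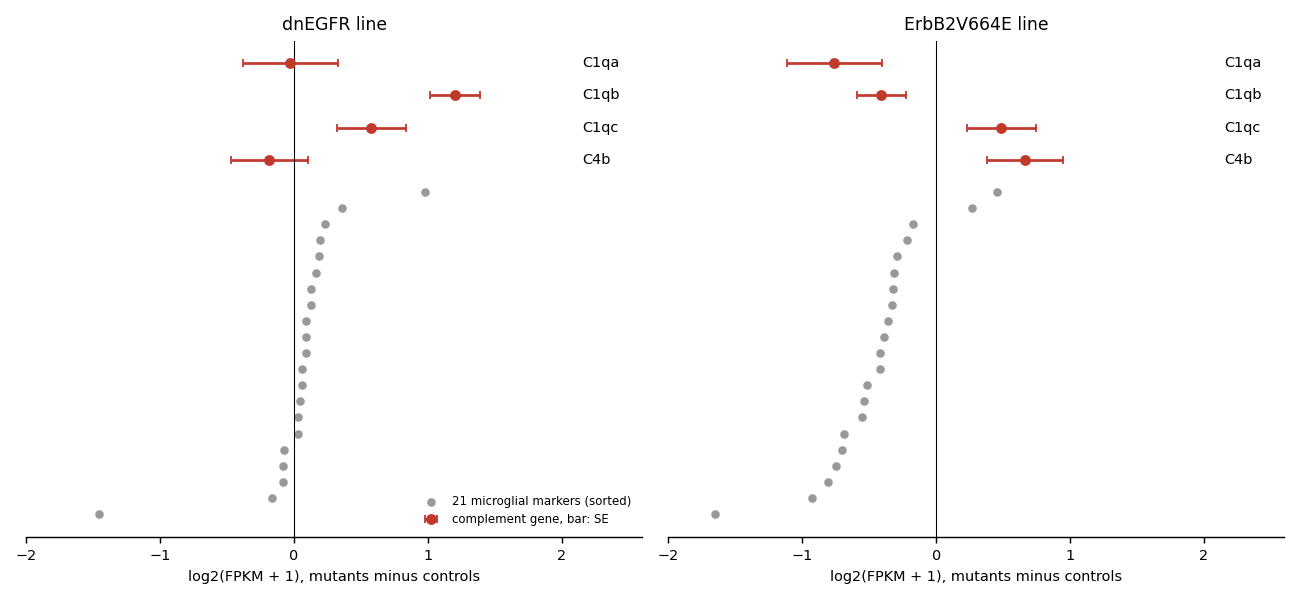
Difference of log2(FPKM + 1), mutants minus controls (x axis), for the 4 tested complement genes (red, bars for the SE) and 21 microglial markers (grey, sorted), in the dnEGFR line (left) and the ErbB2V664E line (right). In the dnEGFR line C1qb (1.20) lies to the right of every marker, and in the ErbB2V664E line C1qa (-0.76) and C1qb (-0.41) lie among the markers while C1qc (0.49) and C4b (0.66) lie to their right.

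The loci whose pattern was most like that of C4b were Asphd2 (Pearson's r = 0.93), Fbxo2, a subunit of a ubiquitin ligase that recognises glycoproteins (0.92), and Nkx6-2, an oligodendrocyte transcription factor (0.91). Fbxo2 was at 26.1 ± 6.47 FPKM in ErbB2V664E mutants and 18.8 ± 3.24 FPKM in ErbB2V664E controls. Serpina3n is a protease inhibitor gene from the list of reactive astrocyte markers, named after its values were seen. It was at 5.89, 9.56 and 8.93 FPKM in ErbB2V664E mutants, against 4.32, 1.38 and 4.14 FPKM in controls, without overlap. Which cells held its RNA was not tested. Its log2 difference was 1.16 (limma, adjusted p = 0.158). Of the 6 tested reactive astrocyte markers, 3 had positive and 3 negative differences, with a median of 0.05. The 11 loci of this list summed to 16.2 to 20 FPKM in mutants and 12 to 17.3 FPKM in controls, and the 10 loci other than Serpina3n to 10.3 to 11 FPKM in mutants and 10.6 to 13.2 FPKM in controls. Their part in the C4b difference was not tested.

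C1qc was most like Neu1, a lysosomal sialidase (0.91), Fam110b (0.90) and Slc30a5, a zinc transporter (0.89). C1qa was most like Ccnd2, a cyclin of the G1 phase (0.93), Plekhh2 (0.91) and Stard3, a late endosomal cholesterol-binding protein (0.91). Ccnd2 shared the low value of ErbB2V664E mutant 3, at 2.79 FPKM beside 10.5 and 8.15 FPKM in mutants 1 and 2. Among the members themselves, C1qb and C1qc had an r of 0.65, C1qa and C1qb 0.16, C1qa and C1qc -0.03, and C4b and C5ar1 0.82 over the 12 libraries. C5ar1 lay below the filter. Mean C4b and mean C5ar1 were both higher in each ErbB2V664E group than in each dnEGFR group, which enters their r.

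The receptor genes were low in the ErbB2V664E line as well. C5ar1 was at 0.199, 0.748 and 0.49 FPKM in mutants, against 0.0536, 0.182 and 0.229 FPKM in controls, an estimated 8.4, 39.8 and 27.1 fragments in mutants and 3, 8.9 and 11.7 in controls. The mutant was higher in all 3 litters, while mutant 1 lay below control 3. Tested without the filter on low values, its log2 difference was 0.34 (limma, unadjusted p = 0.0197, adjusted p = 0.397). C3ar1 was at 0.0171, 0.579 and 0.726 FPKM in mutants, against 0.445, 0.349 and 0.359 FPKM in controls. Mutant 1 had an estimated 1.2 fragments, where the other mutants had 52.2 and 68.2. Replicate 1 of the mutants in each line had about 1 fragment of C3ar1. C3 lay between 0.0186 and 0.08 FPKM in mutants and between 0.0192 and 0.102 FPKM in controls.

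The other genes of the cascade were read from 6 lists with 47 genes, which lie at 43 loci, and 18 loci entered the test. In the dnEGFR comparison 0 of 18 were called, beside 0.0942% of all loci, and in the ErbB2V664E comparison 0 of 18, beside 0.275%. For the difference between the lines 0 of 18 were called, beside 0.116% of all loci. At an unadjusted p under 0.05 there were 2 loci in each of these comparisons, beside 5.69% of all loci in the dnEGFR line, 12.1% in the ErbB2V664E line and 9.01% for the difference. The median log2 difference of the 18 loci was -0.01 in the dnEGFR line and -0.04 in the ErbB2V664E line, beside 0.01 and 0.00 over all loci.

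Among the initiators, the genes of the proteases that act with C1q were low, and none passed the test. C1ra, which encodes C1r, was at 0.994, 1.81 and 0.786 FPKM in ErbB2V664E mutants, against 0.454, 0.361 and 0.519 FPKM in ErbB2V664E controls. C1s1, which encodes C1s, was at 0.86, 0.764 and 0.575 FPKM in mutants, against 0.394, 0.454 and 0.392 FPKM in controls. The groups did not overlap for either gene, nor, among loci named after their values were seen, for the copy C1rb or the locus that joins Cfb, Gm20547 and C2. Among the loci that entered the test, 18.2% did not overlap in this line, and no such share was computed for loci below the filter. The copy C1s2 did overlap, at 0.131 ± 0.0778 FPKM in mutants and 0.112 ± 0.0277 FPKM in controls (SD, n = 3 each). All lay below the filter. In the fit without a filter the log2 differences of C1ra, C1s1, C1rb and the joined locus were 0.58, 0.29, 0.21 and 0.22, at adjusted p of 0.294, 0.443, 0.232 and 0.524 (limma), and that of C1s2 was 0.02 (adjusted p = 0.995). In the dnEGFR line C1ra was at 0.494 ± 0.20 FPKM in mutants and 0.541 ± 0.076 FPKM in controls (SD, n = 3 each), with overlapping groups. C4a had a log2 difference of 0.11 in the dnEGFR line and 0.30 in the ErbB2V664E line (adjusted p = 1 and 0.567, limma).

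Of the lectin pathway, Masp1, a protease of mannose-binding lectin complexes, had log2 differences of -0.17 and -0.20 in the dnEGFR and ErbB2V664E lines. The locus of Masp2 also holds Srm, a spermidine synthase gene, so its values of 3.26 ± 0.443 FPKM in ErbB2V664E mutants and 4.56 ± 0.0883 FPKM in ErbB2V664E controls (log2 difference -0.39, limma, adjusted p = 0.213) cannot be given to either gene. Colec11, a collectin, lay below the filter at 0.296 FPKM on average. Cfp, which encodes the alternative pathway stabiliser properdin, likewise shares its locus with Elk1 and Uxt. No gene of the terminal pathway, which forms the membrane pore, entered the test. The highest of them, C7, lay at 0.638 FPKM on average, followed by C8g at 0.252 FPKM and Hc, which encodes C5, at 0.0386 FPKM.

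Among the receptors, Itgam, the alpha chain of complement receptor 3 and itself a microglial marker, shares its locus with Gm45700. This locus was at 3.77, 1.33 and 1.16 FPKM in ErbB2V664E mutants, against 4.76, 4.21 and 5.12 FPKM in ErbB2V664E controls. Every mutant lay below every control, and the log2 difference was -0.98 (SE 0.28, limma, adjusted p = 0.188). Without mutant 1 it was -1.34 (adjusted p = 0.0103), the only pathway call that any alternative gave. With the microglial marker level as a covariate it was -0.14 (adjusted p = 0.999), and these are the ends of the range over all 19 alternatives. Cr1l, a relative of the complement receptor genes that was kept in the receptor list whatever its role, had log2 differences of -0.03 in the dnEGFR line and -0.02 in the ErbB2V664E line (limma, adjusted p = 1 and 0.986). Itgb2, the beta chain of complement receptor 3, had a log2 difference of 0.12 in the ErbB2V664E line (limma, adjusted p = 0.746). Cd93, a surface protein once described as a C1q receptor and named after its values were seen, was at 1.04, 0.0763 and 2.10 FPKM in dnEGFR mutants, against 0.317, 0 and 0 FPKM in dnEGFR controls, and at 1.02 to 1.76 FPKM in the ErbB2V664E line. Its log2 difference in the dnEGFR line was 0.79 (SE 0.31, limma, adjusted p = 0.836).

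Of 10 tested loci in the list of regulators, which hold complement in check, 0 were called in either line (limma). Clu, which encodes clusterin, was at 155 ± 10.2 FPKM in dnEGFR mutants and 149 ± 13.4 FPKM in dnEGFR controls, and at 251 ± 9.31 FPKM in ErbB2V664E mutants and 234 ± 10.9 FPKM in ErbB2V664E controls (SD, n = 3 each). Vtn, which encodes vitronectin, and Susd4, a membrane inhibitor of the classical pathway, had log2 differences of -0.0009 and -0.05 in the dnEGFR line and of 0.09 and -0.05 in the ErbB2V664E line. Csmd1, a membrane regulator of complement that was named after its values were seen, had a log2 difference of -0.41 in the dnEGFR line (limma, adjusted p = 0.86).

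**Figure D4:**
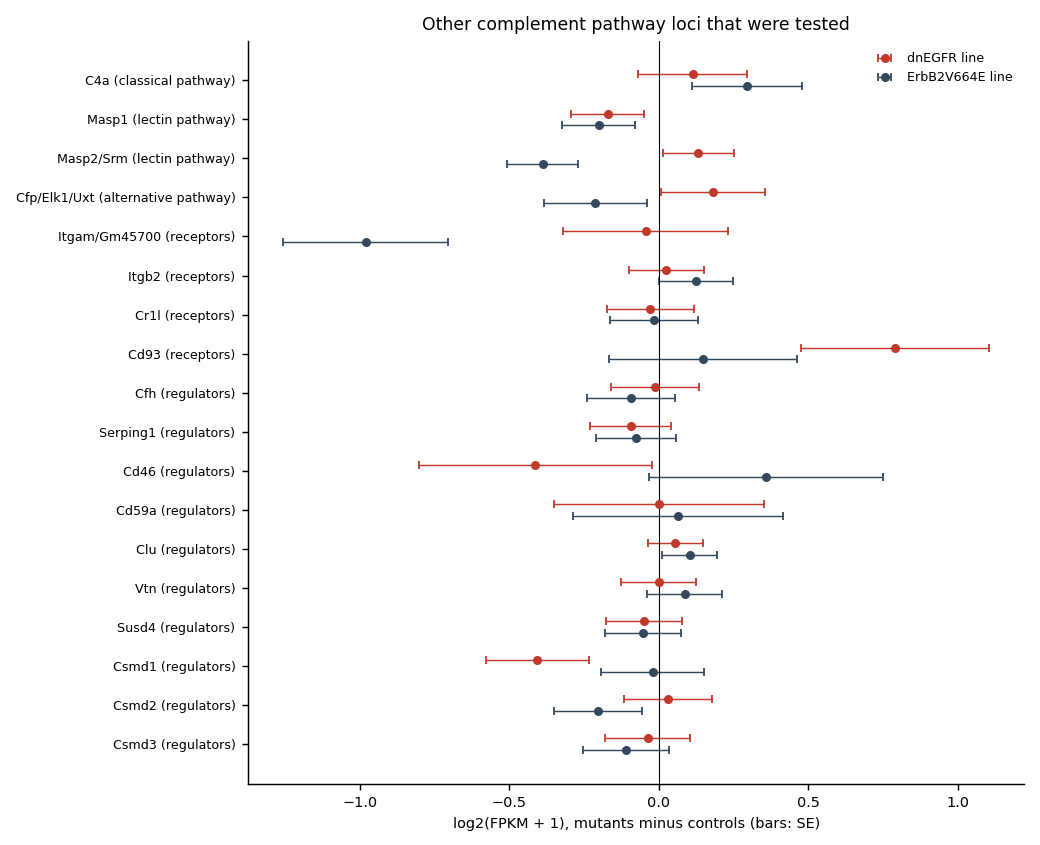
Difference of log2(FPKM + 1), mutants minus controls (x axis, bars for the SE), for the 18 tested complement pathway loci other than the members, in the dnEGFR line (red) and the ErbB2V664E line (dark blue), by role along the y axis. The Itgam locus lies farthest to the left in the ErbB2V664E line (-0.98) and Cd93 farthest to the right in the dnEGFR line (0.79), and none of the 18 passed the threshold in either line.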

How the data were processed

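RNA from 12 libraries in 4 groups of 3 was compared. Per the labels' protocols, polyadenylated RNA was fragmented, primed at random and sequenced in paired ends, with no step named that keeps the strand, so overlapping genes cannot be told apart. The deposited values are FPKM that, per the design text of the series, the authors obtained from StringTie. The submitters' processing notes also name HISAT. Versions, genome build and annotation are not given there. Depth was estimated from the step that 1 fragment makes in the FPKM of single-transcript loci. Estimates of fragments also rest on a reference transcript length and on how reads were assigned, so they carry more than counting error.

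Differences were computed as log2(FPKM + 1), so they understate changes of low genes. Loci at 1 FPKM or more in at least 3 libraries were fitted together with limma 3.58.1 in R 4.3.3, with 8 residual degrees of freedom, and p-values were Benjamini-Hochberg adjusted over all 13803 loci. The fit was tested on simulated data with changes set in the ErbB2V664E comparison. Named were the 7 members, and by mean FPKM the 3 highest genes of each pathway list and of the microglial list, and the 3 most similar loci for each tested member. Exceptions are stated beside them. A microglial gene that this rule names is not reported here. The members and lists were chosen with earlier results of these data known.

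The labels name the mutant to which each control is a littermate, which pairs the libraries in 6 litters. The correlation of deviations within pairs was 0.02, 0.01, 0.03, 0, 0.01 and -0.03. Alternatives were a pseudocount of 0.1, no filter, median-of-ratios scaling, 1 line alone, litter as a block, summed loci, a microglial covariate and each library left out in turn.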

Additional observations from a re-analysis of the deposited data

Results flagged for a closer look

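C1qb was higher in the mutant in all 3 dnEGFR litters and lower in the mutant in all 3 ErbB2V664E litters, with log2 differences of 1.20 and -0.41. The dnEGFR comparison chose the gene, and the ErbB2V664E difference had an adjusted p of 0.413 (limma). The ErbB2V664E difference minus the dnEGFR difference was -1.61, and this value was not tested.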

How the results depend on the processing

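Under the 19 alternatives the 4 tested members kept their direction in the ErbB2V664E line and none was called. Many of these could not change a direction. Leaving out a dnEGFR library, dropping the filter, fitting 1 line alone, blocking by litter or summing loci left each log2 difference as it was. Summed loci gave these members the SE and adjusted p of the main fit too. The log2 difference ranged from -1.05 to -0.105 for C1qa, from -0.49 to -0.27 for C1qb, from 0.36 to 0.67 for C1qc and from 0.38 to 0.93 for C4b, with adjusted p from limma of 0.132 to 0.999 among them. The count of other pathway loci called in the ErbB2V664E line was 0 to 1 when 1 library was left out, with 1 (Itgam) without ErbB2V664E mutant replicate 1, and the cause was not tested. Without that library 262 loci of all tested were called in this line, beside 38 with it. With litter as a replicate block 0 members were called in the ErbB2V664E line and 0 other pathway loci in either line or for the difference, and over all loci 3 were called in the dnEGFR line, 7 in the ErbB2V664E line and 4 for the difference, beside 13, 38 and 16 without the block. C3, C3ar1 and C5ar1 lay below the filter, so they were fitted only without it.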
